A study of Mus musculus with 9 samples.

Results

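The genes of cholesterol synthesis and of its control by SREBP2 were followed in RNA sequencing of mouse liver. A list of 27 genes was chosen by name, and all 27 were found among the 17846 genes listed for each mouse. They comprised 8 genes of the mevalonate and prenyl steps, 3 genes from squalene to lanosterol, 8 genes from lanosterol to cholesterol, 6 genes of SREBP2 and its processing, and 2 genes of sterol carriage. All mice were wild-type C57/BL males. Control mice received a normal chow diet, NASH mice were fed the Ath diet for 20 weeks, and both groups were kept sedentary. The Ath diet contains added cholesterol and cholate, so every comparison with Control is also a comparison of dietary cholesterol. NASH+Exercise mice started 8 weeks of treadmill training after 12 weeks of the Ath diet, at 20 weeks of age. They thus differed from Control in both diet and training. Livers were collected after an overnight fast, with 3 mice per group and 1 library per mouse. The mice carried the replicate numbers 3, 4 and 29 in Control, 5, 19 and 20 in NASH, and 8, 18 and 22 in NASH+Exercise, and values per mouse are given in that order.

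Cholesterol is built from acetyl-CoA through mevalonate, isoprenoid units, squalene and lanosterol. The transcription factor SREBP2, encoded by Srebf2, drives most genes of this route. When the endoplasmic reticulum holds little sterol, the escort protein SCAP carries SREBP2 to the Golgi apparatus, where proteases release its active part. When sterol is plentiful, INSIG proteins hold SCAP back. The liver is a main site of cholesterol synthesis and of cholesterol uptake, and dietary cholesterol is known to lower synthesis there.

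The total estimated count was 20086004 to 22495449 per mouse, and 13619 genes had enough counts to be tested. Levels are given as CPM, the counts relative to library size after TMM normalization, and as TPM, which is also scaled by transcript length. CPM compares 1 gene between mice, and TPM is used here to compare genes within a mouse. A gene was called when the adjusted p was under 0.05 and the absolute log2 fold change was above 1, by the quasi-likelihood test of edgeR, with p-values adjusted after Benjamini and Hochberg over all genes tested. Log2 fold changes are given ± their standard error. "Fell" and "rose" are used for genes with an adjusted p under 0.05 in that test. The tissue is a mixture of cells. The summed CPM of 9 hepatocyte markers lay between 132600 and 153200 in Control, between 83800 and 114400 in NASH and between 98800 and 122900 in NASH+Exercise, and 3 of the 9 fell in NASH. In TPM the same sum overlapped between Control, at 115000 to 122900, and NASH, at 101100 to 126600. It was 93530 to 114200 TPM in NASH+Exercise. The summed CPM of 10 macrophage markers lay between 93.1 and 171 in Control, between 1076 and 1187 in NASH and between 793 and 945 in NASH+Exercise, and 10 of 10 were called higher in NASH. The summed CPM of 9 stellate cell markers lay between 126 and 231 in Control, between 391.7 and 580 in NASH and between 236 and 343 in NASH+Exercise, and 5 of 9 were called higher in NASH. In whole liver, fewer cells of a type and less RNA per cell cannot be told apart, and the part of cell mixture in the results that follow was not tested.

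Promoters are shown because several members were called lower in NASH. RefSeq promoter windows of GRCm38.p6, from 250 bases before to 50 bases after a gene's start, were found for 23 of the 27 members. The windows were searched on both strands for the sterol regulatory element TCACNCCAC, the NF-Y box CCAAT and the Sp1 box GGGCGG, and matches were counted also where they shared bases. The strict sterol element was present in 1 of the 23 members (4.35%) and in 1.44% of all 27025 genes with a window. The NF-Y box was present in 19 of 23 members (82.6%, all genes 41.1%), and the Sp1 box in 20 of 23 (87.0%, all genes 38.2%). Among the 6 members with a window that were called lower in NASH, 6 held an NF-Y box and 6 an Sp1 box, against 13 and 14 of the other 17. A match of letters is a description and not a binding site. The stretches below are the bases before the RefSeq start that lie in no annotated exon, for the called members in which such a stretch of at least 100 bases held a match. They are written 5′ to 3′ on the strand of the gene, with the sterol element and the NF-Y box, on either strand, in capitals.
Hmgcs1, chr13:119690201-119690350 (GRCm38.p6, plus strand, upstream of the first exon): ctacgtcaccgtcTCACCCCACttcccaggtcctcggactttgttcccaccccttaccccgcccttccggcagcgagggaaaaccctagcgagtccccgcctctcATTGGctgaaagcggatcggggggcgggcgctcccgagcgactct
Hsd17b7, chr1:169969243-169969392 (GRCm38.p6, minus strand, upstream of the first exon): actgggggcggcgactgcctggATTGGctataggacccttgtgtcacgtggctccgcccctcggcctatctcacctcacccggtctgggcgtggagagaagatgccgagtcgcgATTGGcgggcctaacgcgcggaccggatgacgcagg
Hmgcs1 is the 1 member with the strict sterol element, and its stretch also holds an NF-Y box. Hsd17b7, the member with the smallest adjusted p in NASH, has NF-Y boxes in its stretch and no match to the strict element in its window.

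To see what the Ath diet did to the route, NASH was compared with Control. Of the 27 members, 8 were called lower in NASH and 0 higher, where 3.03% of all genes tested were called lower. The 8 genes were Hmgcs1, Idi1, Fdps, Sqle, Cyp51, Tm7sf2, Msmo1 and Hsd17b7, all of them enzymes. By adjusted p alone 19 members fell and 0 rose, where 14.4% of all genes tested fell. The values of NASH lay below all values of Control in 20 members, where 22.2% of all genes tested did so, and the groups overlapped in the other 7. The median log2 fold change was -0.77 over the members and 0.013 over all genes tested. The 8 called members spanned log2 fold changes from -2.74 to -1.20, and the 11 that fell without being called spanned -0.96 to -0.43.

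**Figure D1:**
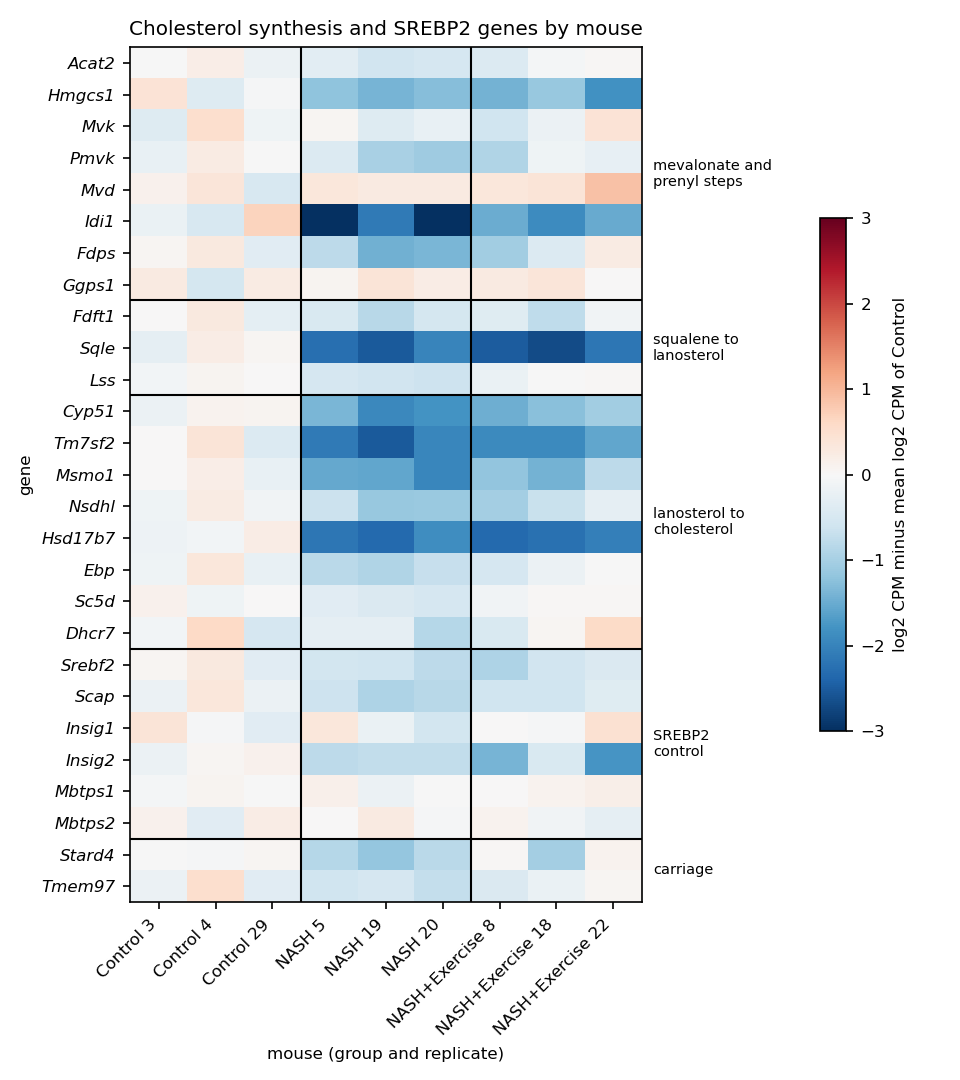
Heat map of the 27 members (rows, grouped by step) in the 9 mice (columns), with color showing log2 CPM minus the mean log2 CPM of the 3 Control mice. Blue, for lower than Control, fills most rows of NASH and is darkest for Idi1, Sqle, Tm7sf2 and Hsd17b7, while Mvd, Ggps1, Mbtps1 and Mbtps2 stay pale.

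The mevalonate and prenyl steps held 3 called members, and 5 of the 8 fell. Idi1 (Entrez Gene 319554, chr13:8885606-8892396), the isomerase that makes dimethylallyl diphosphate, had 4.24, 3.50 and 7.76 CPM in Control, 0.582, 1.13 and 0.595 CPM in NASH, and 1.75, 1.32 and 1.71 CPM in NASH+Exercise. No NASH value reached the lowest value of another group, and Control 29 stood above the other Control mice. The log2 fold change in NASH was -2.74 ± 0.37 (adjusted p = 0.000298, edgeR), a 6.66-fold lower level and the strongest decrease of the 27. The estimated counts behind these values were low, from 14 to 152 per mouse.

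Hmgcs1 (208715, chr13:119690351-119708260), the cytosolic synthase that makes HMG-CoA for this route, had 119, 68.2 and 86.8 CPM in Control, 38.5, 33.6 and 37.0 CPM in NASH, and 33.5, 40.6 and 25.3 CPM in NASH+Exercise. The Control mice spread widely and all lay above the 6 mice on the Ath diet, whose groups overlapped. The log2 fold change in NASH was -1.33 ± 0.22 (adjusted p = 0.000927, edgeR). Fdps (110196, chr3:89093588-89101967), which makes farnesyl diphosphate, had 32.6, 38.4 and 24.6 CPM in Control, 18.1, 11.5 and 12.1 CPM in NASH, and 15.1, 23.7 and 36.9 CPM in NASH+Exercise. NASH lay below Control, and the trained mice spread from the range of NASH to that of Control. The log2 fold change of Fdps in NASH was -1.20 ± 0.32 (adjusted p = 0.0153, edgeR). Its adjusted p missed the threshold without Control replicate 4 (-1.05, adjusted p = 0.055, edgeR), NASH replicate 19 (-1.11, 0.0623) or NASH replicate 20 (-1.11, 0.0549), with the log2 fold change still past -1.

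Acat2, the cytosolic thiolase of the first step, and Pmvk, phosphomevalonate kinase, fell by 0.47 and 0.80 on the log2 scale (edgeR, adjusted p = 0.032 and 0.0243). Acat2 shares 634 bases with an annotated pseudogene, so its counts are less certain. Mvk, the mevalonate kinase, had 4.08, 7.56 and 4.90 CPM in Control and 5.53, 4.07 and 4.55 CPM in NASH, with groups that overlapped and an adjusted p of 0.597 (edgeR). Mvd, which decarboxylates mevalonate diphosphate, and Ggps1, which makes the geranylgeranyl diphosphate used for protein prenylation, had log2 fold changes of 0.26 and 0.19 (edgeR, adjusted p = 0.484 and 0.502). The 2 genes that were fitted higher in this group thus stood beside called neighbours in the route. Within each mouse, the TPM of Idi1 relative to Ggps1 lay between 0.483 and 0.854 in Control and between 0.0663 and 0.12 in NASH. It lay between 0.144 and 0.23 in NASH+Exercise, and the 3 ranges did not overlap. Idi1 was called and Ggps1 was not, so this order was largely set in advance and is not separate evidence.

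All 3 genes from squalene to lanosterol fell in NASH, and 1 was called. Sqle (20775, chr15:59315092-59331193), squalene epoxidase, had 8.32, 11.7 and 10.4 CPM in Control, 2.08, 1.75 and 2.55 CPM in NASH, and 1.79, 1.56 and 2.24 CPM in NASH+Exercise. The lowest Control mouse exceeded the highest mouse on the Ath diet by a wide margin, and NASH and NASH+Exercise overlapped. The log2 fold change was -2.25 ± 0.23 in NASH (adjusted p = 4.16e-05, edgeR), or 4.77-fold lower. Fdft1, squalene synthase, which feeds Sqle, had 49.7, 60.4 and 40.7 CPM in Control and 36.0, 27.9 and 34.5 CPM in NASH, a log2 fold change of -0.62 ± 0.19 (adjusted p = 0.0279, edgeR). Fdft1 overlaps Ctsb over 774 bases, and whether counting used strand is not given in the sources used here. Lss, lanosterol synthase, varied little between mice of a group, with 15.3, 17.2 and 16.3 CPM in Control and 11.5, 10.98 and 10.5 CPM in NASH (log2 fold change -0.57, adjusted p = 0.00403, edgeR). The TPM of Sqle relative to Fdft1 within a mouse lay between 0.226 and 0.345 in Control and between 0.0781 and 0.0999 in NASH. It lay between 0.063 and 0.0715 in NASH+Exercise. Sqle had the larger decrease in NASH, so the order of Control and NASH was largely set in advance here too.

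Of the 8 genes from lanosterol to cholesterol, 7 fell in NASH and 4 were called. Hsd17b7 (15490, chr1:169949535-169969242), the 3-ketosteroid reductase that acts after demethylation at carbon 4, had 66.9, 71.1 and 87.9 CPM in Control, 16.6, 14.9 and 20.7 CPM in NASH, and 14.8, 15.7 and 18.1 CPM in NASH+Exercise. Both groups on the Ath diet lay far below Control and overlapped each other. Its log2 fold change in NASH was -2.11 ± 0.16 (adjusted p = 9.01e-06, edgeR), or 4.33-fold lower. Tm7sf2 (73166, chr19:6062821-6067850), a sterol C14-reductase, had 108, 139 and 80.6 CPM in Control, 24.4, 18.5 and 27.6 CPM in NASH, and 28.5, 28.3 and 35.9 CPM in NASH+Exercise, with a log2 fold change of -2.21 ± 0.22 in NASH (adjusted p = 4.15e-05, edgeR). The 3 groups of Tm7sf2 did not overlap in CPM, with Control the highest and NASH the lowest.

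Cyp51 (13121, chr5:4080674-4104697), the lanosterol 14-alpha-demethylase, had 41.0, 50.2 and 48.9 CPM in Control, 18, 12.3 and 13.4 CPM in NASH, and 16.9, 19.4 and 22.7 CPM in NASH+Exercise. Msmo1 (66234, chr8:64718123-64733578), the oxidase that starts demethylation at carbon 4, had 30.7, 34.6 and 26.0 CPM in Control, 10.4, 10.2 and 7.78 CPM in NASH, and 13.3, 11.3 and 17.6 CPM in NASH+Exercise. Control stood apart in both genes, and NASH and NASH+Exercise overlapped in Cyp51 but not in Msmo1. Both had a log2 fold change of -1.68 in NASH, with standard errors of 0.17 and 0.19 (edgeR, adjusted p = 4.74e-05 and 9.31e-05).

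Nsdhl, the decarboxylating dehydrogenase that works with Msmo1 and Hsd17b7, had 14.0, 17.9 and 14.0 CPM in Control and 9.64, 6.91 and 7.01 CPM in NASH. Its log2 fold change of -0.96 ± 0.21 (adjusted p = 0.00549, edgeR) lay just short of the threshold on size. Ebp, the sterol isomerase, and Sc5d, the C5-desaturase, fell by 0.82 and 0.43 on the log2 scale (edgeR, adjusted p = 0.00416 and 0.0154). Dhcr7, 7-dehydrocholesterol reductase, was the 1 gene of the 8 that did not pass, with 23.6, 37.6 and 17.5 CPM in Control, 20.7, 20.5 and 13.9 CPM in NASH and an adjusted p of 0.25 (edgeR). Relative to Ebp, the TPM of Tm7sf2 was 0.563 to 0.705 in Control and 0.208 to 0.27 in NASH. Relative to Sc5d, the TPM of Hsd17b7 was 0.21 to 0.283 in Control and 0.0702 to 0.103 in NASH. Both ratios set a called gene against a gene with a smaller decrease, so their order was largely set in advance.

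**Figure D2:**
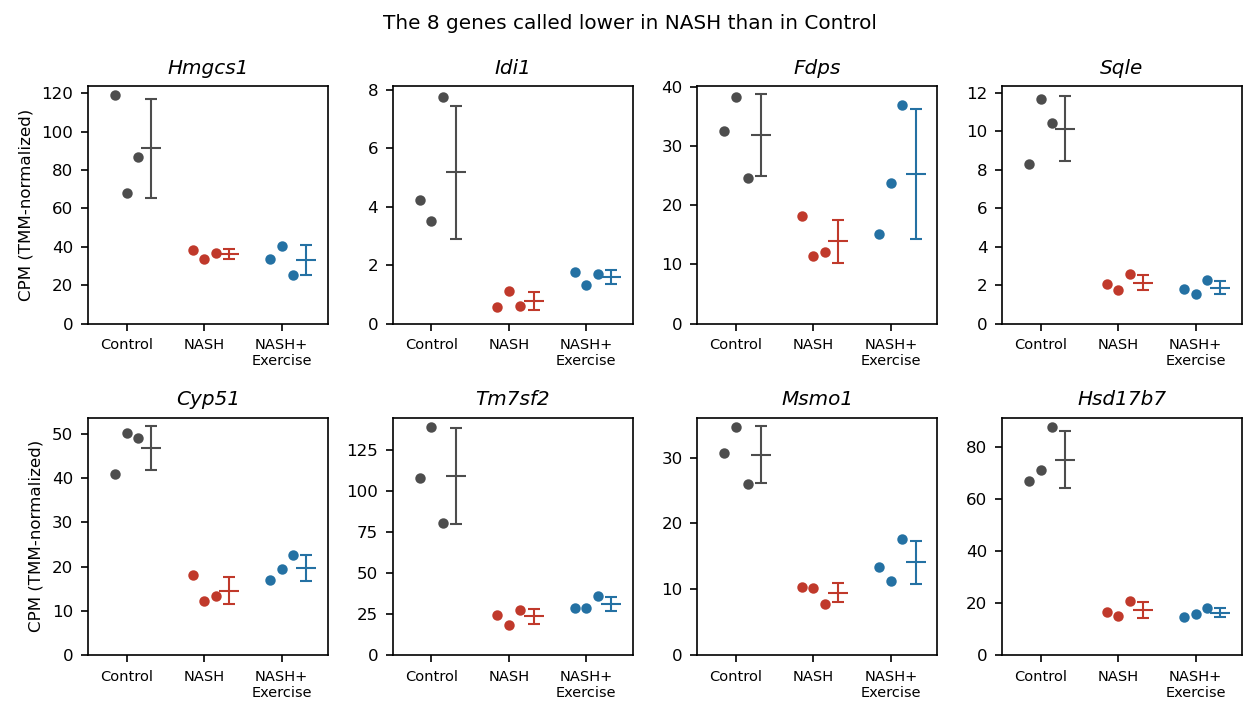
CPM (vertical axis of each panel, linear and from 0) of the 8 members called lower in NASH, by group. Each point is 1 mouse, and the bar beside the points is the mean ± SD of 3 mice. The 3 NASH mice lie below the 3 Control mice in all 8 panels, and 1 NASH+Exercise mouse lies in the range of Control for Fdps and none does in the other 7 panels.

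Of the 6 genes of SREBP2 control, 0 were called in NASH and 2 fell. Srebf2 itself had 46.5, 54.9 and 35.7 CPM in Control, 30.6, 29.9 and 26.3 CPM in NASH, and 23.9, 30.3 and 33.4 CPM in NASH+Exercise. In NASH, the fitted change was -0.66 ± 0.17 (adjusted p = 0.0132, edgeR), or 1.58-fold lower, and the trained mice overlapped NASH and not Control. Scap, the escort protein, had 109, 155 and 109 CPM in Control, 79.8, 64.5 and 68.4 CPM in NASH, and 80.4, 81.3 and 96.1 CPM in NASH+Exercise, with a log2 fold change of -0.81 ± 0.16 in NASH (adjusted p = 0.00312, edgeR). The 3 groups of Scap did not overlap in CPM, but NASH and NASH+Exercise nearly met and overlapped in TPM, at 30.7 to 36.8 and 30.8 to 34.7.

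The INSIG genes differed from each other. Insig1, which is itself induced by SREBPs, had 96.0, 71.2 and 57.9 CPM in Control, 92.5, 63.6 and 49.9 CPM in NASH, and 74.5, 72.2 and 101 CPM in NASH+Exercise, with groups that overlapped in each comparison. Insig2, the second INSIG gene and the one with the highest TPM of all members in Control, had 348, 410 and 433 CPM in Control, 228, 237 and 236 CPM in NASH, and 149, 289 and 117 CPM in NASH+Exercise. The NASH mice lay close together below Control, while among the trained mice replicate 18 stood apart from the other two. The log2 fold change of Insig2 in NASH was -0.77 ± 0.28 (adjusted p = 0.0556, edgeR), which did not pass. The TPM of Insig2 relative to Insig1 was 3.96, 6.28 and 8.20 for the Control mice, 2.67, 4.09 and 5.19 for the NASH mice, and 2.19, 4.35 and 1.26 for the trained mice, with overlap between neighbouring groups. Mbtps1 and Mbtps2, the site-1 and site-2 proteases, had log2 fold changes of -0.011 and 0.066 in NASH (edgeR, adjusted p = 0.951 and 0.827), and both signs turned without Control replicate 4. Mbtps2 shares 2867 bases with Yy2, so reads of these genes may not be told apart.

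Both genes of sterol carriage fell in NASH, and neither was called. Stard4, a soluble carrier of cholesterol between membranes, had 27.9, 27.5 and 29.1 CPM in Control, 15.7, 12.6 and 16.1 CPM in NASH, and 28.9, 13.9 and 30.4 CPM in NASH+Exercise. Of the trained mice, replicates 8 and 22 were at the level of Control and replicate 18 at that of NASH. The log2 fold change of Stard4 in NASH was -0.93 ± 0.25 (adjusted p = 0.0149, edgeR). Tmem97, the sigma-2 receptor, which binds sterols, fell by 0.65 on the log2 scale (adjusted p = 0.0356, edgeR).

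The scaling between libraries bears on these decreases. With library size alone in place of TMM, the median over all genes tested moved on the log2 scale from 0.013 to 0.36 and that of the members from -0.77 to -0.42, and 24 members lay below the median of all genes under either scaling. With that scaling 6 members were called lower, where 1.61% of all genes tested were. Hmgcs1 (-0.996, adjusted p = 0.0125) and Fdps (-0.83, adjusted p = 0.0303, edgeR) were no longer called. By adjusted p alone 11 members were lower and 1 higher with library size alone, where 4.65% of all genes tested were lower. In limma on log2(TPM + 1), 11 members were lower and 2 higher, where 3.85% of all genes tested were lower. Of the 13619 genes tested, 4489 were higher with library size alone and 5045 in limma. The 8 members that no longer passed were the same in both, namely Acat2, Pmvk, Fdft1, Lss, Sc5d, Srebf2, Stard4 and Tmem97. With library size alone and in limma, in that order, the log2 fold changes were -0.26 and -0.16 for Fdft1 (adjusted p = 0.219, edgeR, and 0.402, limma), -0.21 and -0.14 for Lss (0.198 and 0.432), -0.090 and -0.023 for Sc5d (0.611 and 0.91), -0.59 and -0.45 for Stard4 (0.104 and 0.172), and -0.27 and -0.17 for Tmem97 (0.244 and 0.376). Those of Acat2 were -0.11 and -0.028, of Pmvk -0.44 and -0.33, and of Srebf2 -0.29 and -0.18. With 1 mouse left out, 12 members passed without NASH replicate 20, 13 without NASH replicate 19 and 14 without Control replicate 4. That number was 16 without Control replicate 3, 18 without NASH replicate 5 and 19 without Control replicate 29. Over all genes tested, 1491, 1265, 1847, 1543, 1446 and 2145 were lower by adjusted p in those fits, in that order, against 1960 with all mice. The number over all genes thus also dropped in most of these fits. Whether the members lost more than all genes did was not tested. Acat2, Pmvk, Fdft1, Sc5d, Srebf2, Stard4 and Tmem97 each failed to pass without at least 1 mouse, and Lss passed without any 1 mouse.

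Differences between genes in level were read from TPM. In Control, Insig2 had the highest level at 243 ± 49.9 TPM (SD, n = 3), followed by Ebp at 167 ± 13.6 TPM, Tm7sf2 at 108 ± 14.2 TPM and Sc5d at 97.2 ± 20.5 TPM. The ranges of Tm7sf2 and Sc5d overlapped, and those of Insig2 and Ebp did not. The lowest levels in Control were those of Idi1, Mbtps2 and Mvd, at 2.75 ± 1.56, 2.15 ± 0.685 and 1.88 ± 0.312 TPM (SD, n = 3), which overlapped. In NASH, Tm7sf2 was at 31.7 ± 4.27 TPM, which put it in the range of Scap and Mbtps1, and Sqle and Idi1 had the lowest levels at 1.53 ± 0.201 and 0.547 ± 0.263 TPM (SD, n = 3). In NASH+Exercise, Ebp had the highest level at 157 ± 9.22 TPM, but its range lay within that of Insig2 at 123 ± 60.4 TPM (SD, n = 3).

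**Figure D3:**
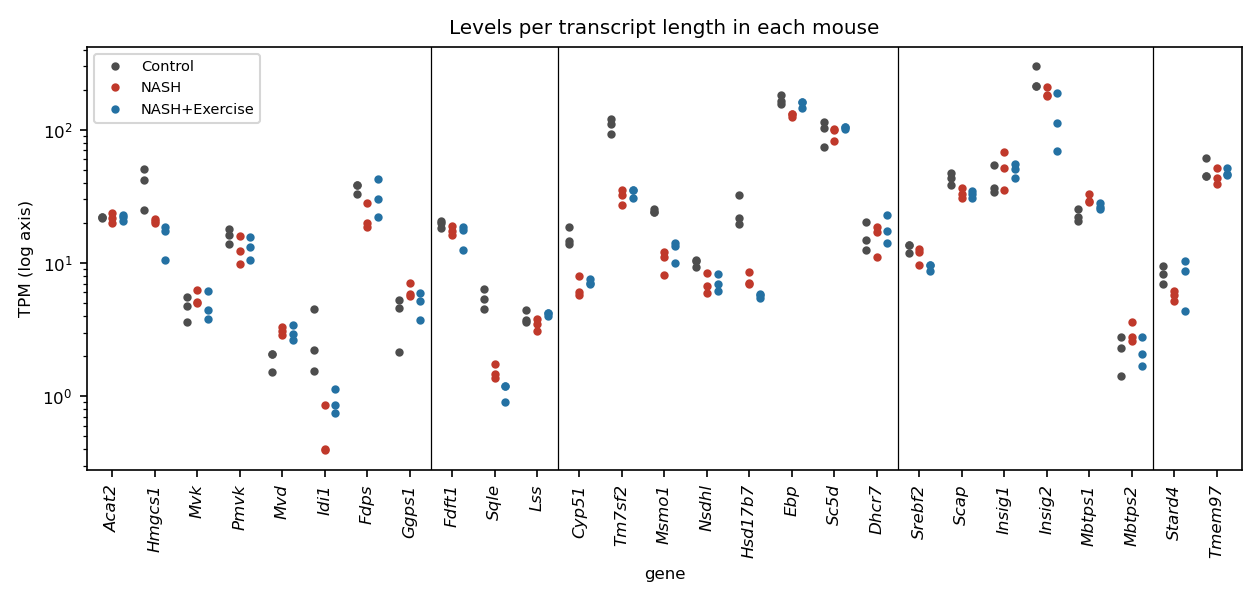
TPM (log axis) of the 27 members in each mouse, with groups by color and steps divided by lines. Levels of the members span from under 1 TPM for Idi1 in NASH to 301 TPM for Insig2 in a Control mouse, and Tm7sf2 leaves the uppermost genes in both groups on the Ath diet.

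Summed over the 27 members, the level was 1043 ± 52.7 TPM in Control, 790 ± 51.3 TPM in NASH and 762 ± 44.3 TPM in NASH+Exercise (SD, n = 3). In CPM the sums of the same groups were 1741 ± 128, 1004 ± 57.9 and 1164 ± 122 (SD, n = 3), so the distance from Control was smaller in TPM. The 19 enzymes alone summed to 952 ± 78.9 CPM in Control, 485 ± 28.6 CPM in NASH and 641 ± 78.7 CPM in NASH+Exercise (SD, n = 3). The 3 ranges of the enzymes did not overlap on either scale, and ran from 873 to 1031 CPM in Control, 458 to 515 CPM in NASH and 560 to 717 CPM in NASH+Exercise. Without Ebp and Sc5d, which are abundant, NASH and NASH+Exercise overlapped on both scales, at 218 to 261 and 253 to 337 CPM, and Control stayed above them at 520 to 618 CPM. Within a group, some mice were high or low in most members. Control 4 had the highest CPM of its group in 18 of 27 members, NASH 5 in 17 and NASH+Exercise 22 in 21. NASH+Exercise 8 had the lowest in 16 and NASH 19 in 15. The coefficient of variation between mice of a group had a median over the members of 20.0% in Control, of 12.9% in NASH and of 17.0% in NASH+Exercise.

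To see whether training was accompanied by a change in the route, NASH+Exercise was compared with NASH. Of the 27 members, 0 were called, where 0.103% of all genes tested were called higher and 0.0367% lower. By adjusted p alone 0 members rose and 0 fell, where 0.11% and 0.0514% of all genes tested did. The smallest adjusted p was 0.127, for Lss (edgeR). At an unadjusted p under 0.05, 8 members differed, all of them fitted higher in NASH+Exercise, where 15.3% of all genes tested had such a p in either direction. That number was 12 in the fit of 6 mice (all genes 18.7%), 4 without NASH replicate 20 (11.5%), 4 without NASH+Exercise replicate 22 (9.01%), 3 with library size alone (20.8%) and 2 in limma (29.8%). The 8 were Idi1, Fdps, Lss, Cyp51, Msmo1, Ebp, Sc5d and Stard4. DESeq2 gave 2 members an adjusted p under 0.05 as higher, where 0.812% of all genes tested by it were higher. They were Lss with a log2 fold change of 0.52 (adjusted p = 0.0376, DESeq2) and Sc5d with 0.43 (adjusted p = 0.016, DESeq2). On both criteria DESeq2 called 0 members, where it called 64 of 13664 genes higher and 107 lower.

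The fitted values leaned upward. Of the 27 members, 21 were fitted higher in NASH+Exercise than in NASH, and the median log2 fold change was 0.32, against -0.033 over all genes tested. In CPM, the values of NASH+Exercise lay above all values of NASH in 9 members (33.3%), where 9.16% of all genes tested did so. They lay below in 0 members, where 14.9% of all genes tested did so. The 9 were Mvd, Idi1, Lss, Tm7sf2, Msmo1, Ebp, Sc5d, Scap and Tmem97, of which 3 were among those called lower in NASH. The margin was narrow for Mvd, at 2.793 against 2.785 CPM, and for Scap, at 80.44 against 79.84 CPM. In TPM, Lss, Ebp and Sc5d stayed apart, and the others of the 9 overlapped between NASH and NASH+Exercise. The margin of Sc5d was narrow there, at 101.3 against 101.1 TPM. The number fitted higher moved with the scaling, to 18 with library size alone (median 0.11, all genes -0.23) and to 14 in limma on log2(TPM + 1) (median 0.012, all genes -0.26). Relative to the median of all genes, 5 members lay lower in the edgeR fit, 5 with library size alone and 6 in limma.

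Among single genes, Idi1 had the largest fitted increase, a log2 fold change of 1.04 ± 0.39 (adjusted p = 0.252, edgeR), and Fdps followed with 0.86 ± 0.31 (adjusted p = 0.252, edgeR). Lss had 14.2, 16.0 and 16.6 CPM in the trained mice, above the 10.5 to 11.5 CPM of NASH and overlapping the 15.3 to 17.2 CPM of Control. Sc5d had 168, 185 and 187 CPM, above the 127 to 143 CPM of NASH and overlapping Control. Ebp had 139, 175 and 194 CPM, against 105 to 121 CPM in NASH. Hmgcs1, Sqle and Hsd17b7 had fitted changes of -0.14, -0.19 and -0.10 with standard errors of 0.21, 0.24 and 0.16, so their levels in trained mice differed from NASH by less than the standard error. Srebf2 had a fitted change of 0.014 ± 0.17, and its sign turned with the scaling by library size, at -0.20. Macrophage markers were not called between these groups, with 0 of 10 passing and a median log2 fold change of -0.43, and the hepatocyte markers had a median of 0.25 with 0 of 9 passing. The stellate cell markers had a median of -0.85 with 0 of 9 passing. Of these 9, 6 were lower without overlap, where 14.9% of all genes tested were. The cholangiocyte markers had a median of -1.28 with 0 of 6 passing and none without overlap. What these shifts in cell markers contribute to the upward lean was not tested.

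NASH+Exercise was also compared with Control. Of the 27 members, 8 were called lower and 0 higher, where 3.07% of all genes tested were called lower. By adjusted p alone 10 fell, where 9.58% of all genes tested fell, and in 11 members NASH+Exercise lay below all Control mice, where 17.0% of all genes tested did so. The median log2 fold change over the members was -0.34, against 0.0032 over all genes tested. The same control mice served in both comparisons, and 7 genes were called in both, namely Hmgcs1, Idi1, Sqle, Cyp51, Tm7sf2, Msmo1 and Hsd17b7. Their log2 fold changes against Control were -1.46, -1.70, -2.44, -1.25, -1.82, -1.11 and -2.22 in NASH+Exercise, beside -1.33, -2.74, -2.25, -1.68, -2.21, -1.68 and -2.11 in NASH. The call of Msmo1 in NASH+Exercise was lost on size without Control replicate 4 (-0.99) or NASH+Exercise replicate 18 (-0.98).

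Fdps was called in NASH and not in NASH+Exercise, at -1.20 and -0.34, and Insig2 in NASH+Exercise and not in NASH, at -1.10 ± 0.28 (adjusted p = 0.0166, edgeR) and -0.77. The direct comparison of NASH+Exercise with NASH did not call either gene. The call of Insig2 was lost without NASH+Exercise replicate 8 (-0.97, adjusted p = 0.0661, edgeR) or replicate 22 (-0.86), the trained mice with its lowest values. By adjusted p alone, Srebf2 and Scap also fell in NASH+Exercise, by 0.65 and 0.53 on the log2 scale (edgeR, adjusted p = 0.0199 and 0.0342). Neither passed in the fit of 6 mice, without Control replicate 4 or without NASH+Exercise replicate 8. Srebf2 also failed to pass without Control replicate 3, and Scap without NASH replicate 20 or NASH+Exercise replicate 18. The other members that had fallen in NASH had smaller fitted differences from Control in the trained mice. They ran from -0.017 for Sc5d to -0.63 for Nsdhl (edgeR, adjusted p = 0.938 and 0.0508), and the groups of Nsdhl did not overlap. Lss was at -0.062 and Ebp at -0.23 (edgeR, adjusted p = 0.757 and 0.366). These members were picked for having fallen against the same Control mice, so smaller values here do not by themselves show a return to Control.

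**Figure D4:**
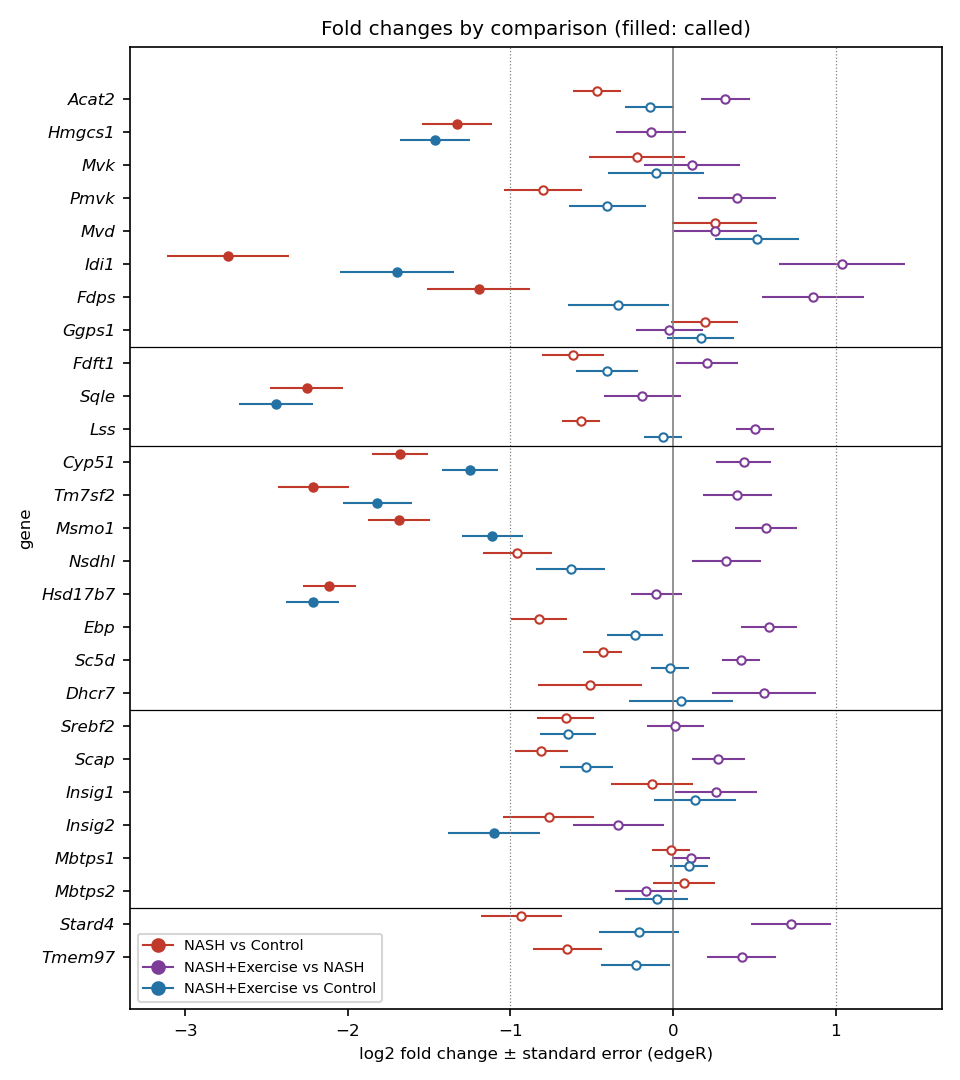
Log2 fold change (points) ± standard error (bars) from edgeR of the 27 members in 3 comparisons, with filled points for called genes and dotted lines at the threshold on size. NASH against Control and NASH+Exercise against Control lie to the left for most enzymes, and all points of NASH+Exercise against NASH are open.

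Other genes of sterol and lipid handling were examined as a list of 43, of which 42 were tested. In NASH, 4 of the 42 were called higher and 3 lower, where 15.3% of all genes tested were called higher and 3.03% lower. By adjusted p alone 8 rose and 16 fell, where 21.2% of all genes tested rose and 14.4% fell. In NASH+Exercise against NASH, 0 of 42 were called, and against Control 4 were called higher and 3 lower, where 10.4% and 3.07% of all genes tested were. Srebf1 (20787), which encodes the SREBP1 proteins that drive fatty acid synthesis, had 44.8, 59.3 and 59.6 CPM in Control, 215, 205 and 204 CPM in NASH, and 312, 313 and 468 CPM in NASH+Exercise. The 3 groups did not overlap, in the order Control, NASH, NASH+Exercise. Its log2 fold change in NASH was 1.93 ± 0.19 (adjusted p = 3.41e-05, edgeR), whereas that of its paralog Srebf2 was negative, at -0.66. Between NASH+Exercise and NASH, Srebf1 had a log2 fold change of 0.81 ± 0.18 (adjusted p = 0.122, edgeR).

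Within a mouse, the TPM of Srebf1 relative to Srebf2 was 1.16, 1.29 and 1.96 for the Control mice, 8.18, 8.11 and 9.34 for the NASH mice, and 15.2, 12.1 and 16.5 for the trained mice. This ratio does not depend on the scaling between libraries, and its 3 ranges did not overlap. It is built from the changes of Srebf1 and Srebf2 given above and is not separate evidence of them. A two-sided exact permutation test of 3 mice against 3 cannot give a p under 0.1, so no test of the ratio is given.

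**Figure D5:**
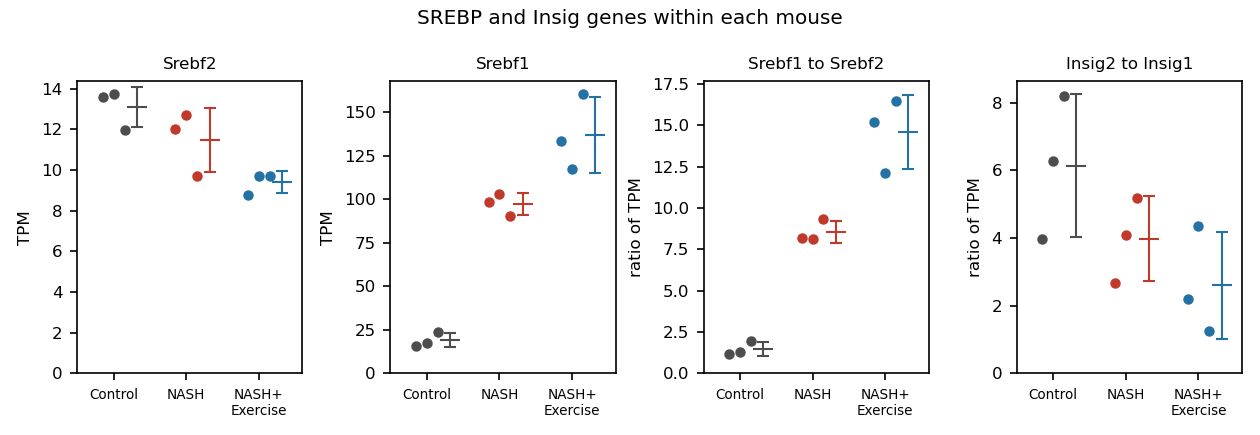
Srebf2 and Srebf1 in TPM, and the within-mouse TPM ratios of Srebf1 to Srebf2 and of Insig2 to Insig1, by group on linear axes from 0. Points are mice, and bars are the mean ± SD of 3 mice. The ratio of Srebf1 to Srebf2 separates the 3 groups, from 1.16 to 1.96 in Control up to 12.1 to 16.5 in NASH+Exercise, while the ratio of Insig2 to Insig1 overlaps.

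Soat1, which esterifies cholesterol for storage and is abundant in macrophages, had 1.88, 1.72 and 2.40 CPM in Control, 12.7, 15.4 and 12.2 CPM in NASH, and 9.56, 7.03 and 9.31 CPM in NASH+Exercise. In NASH, the log2 fold change was 2.74 ± 0.20 (adjusted p = 7.98e-06, edgeR), and the macrophage markers rose with it. Acat1, the mitochondrial thiolase, and Elovl6, an elongase of fatty acids and a target of SREBP1, had log2 fold changes of -1.14 and -1.30 in NASH (edgeR, adjusted p = 0.000194 and 0.0466). The Control mice spread widely in Elovl6, from 20.9 to 63.4 CPM, and Elovl6 was called in 6 of 15 alternatives, with -0.76 without Control replicate 29 (adjusted p = 0.15, edgeR). Acat1 kept an adjusted p under 0.05 in all 15 and was short of the threshold on size with library size alone (-0.80) and in limma (-0.71). In NASH+Exercise against Control, Fabp5, a fatty acid binding protein, was called higher at 2.24 ± 0.66 (adjusted p = 0.0343, edgeR). Fabp5 was called in 7 of 15 alternatives, with log2 fold changes from 1.79 without Control replicate 3 (adjusted p = 0.0743, edgeR) to 3.58 without Control replicate 29, and an adjusted p of up to 0.134 without Control replicate 4.

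Albumin offers a second reference within each library, since hepatocytes are its source, but it was not constant. Alb was at 67850 ± 8531 TPM in Control, 63190 ± 8983 TPM in NASH and 49400 ± 10670 TPM in NASH+Exercise (SD, n = 3). In CPM its NASH values lay below all Control values, with a log2 fold change of -0.52 (adjusted p = 0.0889, edgeR). Per 10000 TPM of Alb, Sqle was at 0.609 to 0.93 TPM in Control, 0.215 to 0.257 TPM in NASH and 0.195 to 0.244 TPM in NASH+Exercise. Tm7sf2 was at 12.9 to 20.7 TPM in Control, 4.73 to 5.21 TPM in NASH and 5.84 to 7.83 TPM in NASH+Exercise, Hsd17b7 at 2.93 to 4.51 TPM, 1.04 to 1.33 TPM and 0.969 to 1.40 TPM, and Cyp51 at 1.89 to 2.62 TPM, 0.845 to 1.16 TPM and 1.16 to 1.79 TPM. For all 4 genes, both groups on the Ath diet lay below Control relative to Alb. These 4 genes are among the 8 called lower in NASH, so their order relative to Alb was largely set in advance. The ratios are thus not separate evidence of the decrease, and members with smaller decreases were not set against Alb. Between NASH and NASH+Exercise, Tm7sf2 was apart relative to Alb, while its TPM overlapped, at 27.1 to 35.6 and 30.8 to 35.6.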

How the data were processed

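The authors deposited, for each gene and mouse, an estimated count that was not normalized, together with FPKM and TPM values, which are scaled by transcript length and library. The submitters' processing notes name HISAT2 2.1.0, Bowtie2 2.2.5, RSEM 1.2.8 and GRCm38.p6, and strandedness is not given in the sources used here. The deposited estimated counts were rounded for testing, the deposited TPM values served for levels between genes, and the FPKM values that the authors deposited were not used. Symbols and coordinates came from RefSeq (GRCm38.p6), which named 17728 of 17846 identifiers. Of the hepatocyte markers, 1 had no match by symbol, and of the T cell markers 1.

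Counts were tested with edgeR 4.0.16 (R 4.3.3): filterByExpr by group (minimum count 10, total 15), TMM, glmQLFit with the robust option on the 9 libraries together, group being the 1 factor and 6 degrees of freedom remaining, and Benjamini-Hochberg adjustment over 13619 genes. Alternatives were RLE factors, library size alone, no filter, DESeq2 1.42.0, a fit of 6 mice, limma 3.58.1 on log2(TPM + 1), adjusted p alone, and leaving out each mouse. The fit was tested on simulated data. Precision was limited by the 3 mice a group and, for genes with few counts, by depth. The members and all gene lists were chosen with earlier results of these data known, so no p was computed over the members. All 27 members were described. Of the other pathway genes, at most 3 per comparison and direction were named by size, along with Acat1 and Srebf1, and some genes that this rule names are not reported here. Mice were separate animals, and nothing gives their cages or preparation batches.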

Additional observations from a re-analysis of the deposited data

How the results depend on the processing

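The count of members called lower in NASH was 8 in the fits with RLE factors, without a filter, with DESeq2 and with the 6 mice of the comparison, 6 with library size alone and in limma on log2(TPM + 1), 19 by adjusted p alone, and 7 to 10 with a mouse left out. Called members in NASH+Exercise against NASH stayed at 0 under every alternative run. Over all genes tested, these fits also called few, at most 64 higher and 107 lower of 13664 (DESeq2). Without NASH replicate 20 or NASH+Exercise replicate 18, 0 genes were called in either direction. The 0 called members thus do not show that the members were unchanged. Called members in NASH+Exercise against Control ranged from 6 to 8 in the alternative fits, and 10 members passed by adjusted p alone. Idi1, Sqle, Cyp51, Tm7sf2, Msmo1 and Hsd17b7 were called lower in NASH under every alternative. Without NASH replicate 5, Nsdhl (-1.13) and Pmvk (-1.03) were also called, and Nsdhl also without Control replicate 3 (-1.02) or 29 (-1.06). In NASH+Exercise against Control, library size alone ended the calls of Msmo1 (-0.96) and Insig2 (-0.95), and limma those of Msmo1 (-0.94) and Idi1 (-0.91), whose TPM lies near the pseudocount of 1. Of the other pathway genes, 8 rose and 16 fell by adjusted p alone in NASH, where 21.2% and 14.4% of all genes tested did. In NASH+Exercise against Control 8 fell, where 9.58% of all genes tested did. In NASH, 1 was called lower with library size alone and 1 in limma, where 1.61% and 1.12% of all genes were. The number called higher in NASH ranged from 2 (without Control replicate 4) to 5 with a mouse left out. The log2 ratio of the summed members was -0.40 in TPM and -0.79 in CPM for NASH, -0.051 and 0.21 for NASH+Exercise against NASH, and -0.45 and -0.58 for NASH+Exercise against Control.

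Directions that turned belonged to genes that did not pass the test in the comparison concerned. With library size alone and in limma, in that order, the log2 fold changes in NASH were 0.14 and 0.21 for Mvk, 0.22 and 0.29 for Insig1, and 0.34 and 0.40 for Mbtps1. Those in NASH+Exercise against NASH were -0.10 and -0.18 for Mvk, -0.20 and -0.26 for Srebf2, and -0.091 and -0.18 for Mbtps1, and limma alone turned Mvd (-0.043), Fdft1 (-0.10), Insig1 (-0.0076) and Scap (-0.024). Those in NASH+Exercise against Control were 0.039 and 0.034 for Mvk, 0.082 and 0.068 for Lss, 0.12 and 0.11 for Sc5d, and 0.039 and 0.022 for Mbtps2, and library size alone turned Acat2 (0.0024). The fit of 6 mice turned Ggps1 against NASH (0.0091) and Sc5d against Control (0.017). With a mouse left out, values in NASH ran from -0.40 to 0.054 for Mvk, -0.41 to 0.084 for Insig1, -0.038 to 0.32 for Ggps1, -0.099 to 0.034 for Mbtps1 and -0.10 to 0.15 for Mbtps2. In NASH+Exercise against NASH they ran from -0.30 to 0.028 for Hmgcs1, -0.19 to 0.33 for Mvk, -0.19 to 0.042 for Hsd17b7, -0.092 to 0.14 for Srebf2, -0.094 to 0.078 for Ggps1 and -0.20 to 0.027 for Acat1. In NASH+Exercise against Control they ran from -0.42 to 0.21 for Mvk, -0.11 to 0.0017 for Lss, -0.063 to 0.044 for Sc5d, -0.25 to 0.43 for Dhcr7, -0.036 to 0.35 for Insig1, -0.40 to 0.072 for Stard4, -0.42 to 0.093 for Tmem97, -0.026 to 0.30 for Ggps1 and -0.93 to 0.077 for Elovl6. The causes of these changes were not tested. No paired analysis was possible because no replicate number occurs in more than 1 group. Mbtps1 also passed by adjusted p in NASH with library size alone, and Mbtps1 and Mvd in limma, in both cases as higher. Counting error limits Idi1, Mvd and Sqle most, which had the lowest counts.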
